A study of Mus musculus with 6 samples.

Results

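The genes described here are 10 components of transforming growth factor beta (TGF-beta) signalling: the ligand gene Tgfb1, the receptor genes Tgfbr1 and Tgfbr2, the SMAD genes Smad2, Smad3, Smad4 and Smad7, the SMAD corepressor genes Ski and Skil, and Thbs1, which encodes thrombospondin-1. They were taken by gene name from a deposited table of 55471 mouse gene IDs, and all 10 were present. RNA came from granulocyte-monocyte-lymphoid progenitors (GMLPs), sorted from mouse bone marrow as lineage-negative cells positive for Kit, Sca1 and CD48 and negative for CD150. The ME group carried MLL-ENL, a leukaemia fusion of the MLL and ENL genes, and the L28BME group carried LIN28B together with MLL-ENL. All cells, including those of the ME group, carried the fusion and were kept in culture with doxycycline (DOX) for 3 days, and each group had 3 libraries. The sources used here give neither age, sex, the promoters of the alleles nor which alleles respond to DOX. Nor do they state if each replicate is its own animal or culture, so the p-values measure only the spread between the samples, which can be technical.

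TGF-beta is secreted in a latent form, and thrombospondin-1 is among the proteins known to release the active ligand. The ligand binds the type II receptor, encoded by Tgfbr2, which phosphorylates the type I receptor, encoded by Tgfbr1. The activated type I receptor phosphorylates SMAD2 and SMAD3, which join SMAD4 and act on genes in the nucleus, while SMAD7 inhibits the receptor and Ski and SnoN, the product of Skil, repress SMAD target genes. In bone marrow, TGF-beta1 is known as a brake on stem cell division, and megakaryocytes store both it and thrombospondin-1 in their granules. LIN28B, a protein of fetal blood cells, binds RNA and keeps let-7 microRNAs from maturing.

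Thbs1, Tgfbr1 and Smad3 were higher in L28BME than in ME, and none of the 10 genes was called lower. Thbs1 was higher by 1.42-fold, Tgfbr1 by 1.45-fold and Smad3 by 1.19-fold. Tgfb1, Tgfbr2, Smad2, Smad4, Smad7, Ski and Skil were not called. Calls were made with limma on log2(TPM + 1) at a Benjamini-Hochberg adjusted p under 0.05, over all 13348 genes tested. TPM is a transcript abundance scaled for length and to a fixed total per library. A fold is a ratio of mean TPM, while a log2 fold change is a difference of mean log2(TPM + 1), so these need not match exactly. All 10 genes passed the filter on low values, which asked for 1 TPM or more in 3 or more of the 6 libraries. The 3 higher calls among 10 genes stand beside a background of 8.28% of all tested genes called higher, and the 0 lower calls beside 6.6% called lower. At an unadjusted p under 0.05, 4 of the 10 genes were higher and 0 lower, against 16% of all tested genes higher and 13.7% lower. ME and L28BME values were fully separated for 5 of the 10 genes, and for 36.7% of all tested genes. The median log2 fold change of the 10 genes was 0.06, and that of all tested genes was 0.0033. The 10 genes were chosen with earlier results of these data known. These comparisons with all tested genes therefore describe the 10 genes and do not test them as a set.

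The gene that defines the contrast, Lin28b, was listed at 0 in each ME library and at 11.2, 11.7 and 11.9 TPM in L28BME, as read from the mouse gene model, which may not measure an introduced LIN28B. Across genes, which are no independent replicates, log2(TPM + 1) correlated at 0.987 to 0.988 (Pearson) within groups and at 0.977 to 0.980 between them. The sequencing depth behind a TPM is unknown, so no counting interval is given for any single value.

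Levels of the 10 genes spanned a wide range in both groups. On the TPM scale, Thbs1 and Tgfb1 were the most abundant, at means of 191 and 180.4 TPM in ME, and their ME values overlapped. Smad4, Smad2, Tgfbr1 and Smad3 followed at means of 35.1, 29.1, 26.6 and 23.4 TPM in ME. In that order, Smad4 overlapped with Smad2 and Smad2 with Tgfbr1, while every Tgfbr1 value lay above every Smad3 value. Ski and Tgfbr2, at 14.8 and 12.97 TPM, also overlapped, and Smad7 and Skil were lowest at 6.89 and 5.19 TPM. In L28BME, Thbs1 and Tgfb1 kept the top ranks but no longer overlapped, and the order changed in the middle. Tgfbr1 came next at 38.7 TPM, overlapping with Smad4, and the Smad3 mean lay above that of Smad2 with overlapping values.

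**Figure D1:**
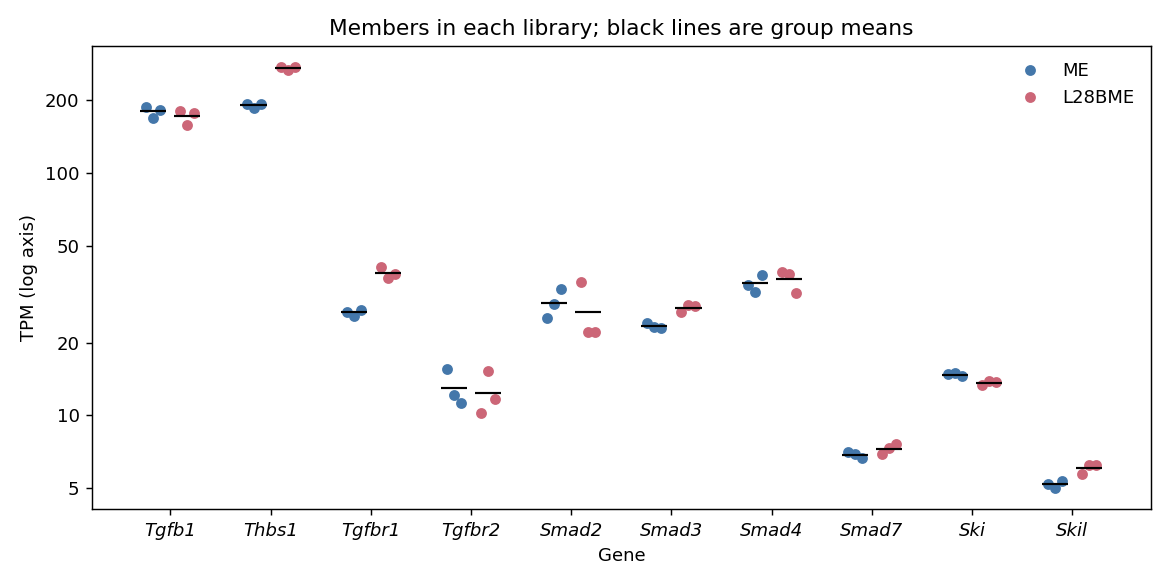
TPM (log axis) of the 10 genes in each of the 3 ME and 3 L28BME libraries; each point is a library and black lines are group means. The L28BME points of Thbs1, Tgfbr1, Smad3 and Skil all lie above the ME points, those of Ski all lie below, and the groups overlap for the other 5 genes.

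Thbs1, the gene of an activator of the ligand, was called higher, and the ligand gene Tgfb1 was not; the difference between these genes was not tested. Thbs1 (ENSMUSG00000040152, chromosome 2, 118111876 to 118127133 on the plus strand of GRCm38) was at 193, 187 and 193 TPM in ME and at 274, 266 and 275 TPM in L28BME. Every L28BME value lay above every ME value, and the libraries of a group were close together. The means were 191 ± 3.62 and 272 ± 4.76 TPM (mean ± SD, n = 3 in each group, as for all later means). Thbs1 had a log2 fold change of 0.51 (SE 0.030, 95% interval 0.43 to 0.58, limma adjusted p = 4.89e-04), and 94.9% of the tested genes had a lower one. An antisense gene model, Gm29233, shares 208 exonic bases with Thbs1 and was listed at 0 in every library.

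Tgfb1 (ENSMUSG00000002603, chromosome 7, 25687002 to 25705077, plus strand) was at 188, 170 and 183 TPM in ME and at 181, 158 and 177 TPM in L28BME. The groups overlapped, and replicate 2 was the lowest of each group. Its log2 fold change was -0.07 (SE 0.066, 95% interval -0.23 to 0.09, limma adjusted p = 0.540). The interval leaves out an increase as large as that of Thbs1 or Tgfbr1. In these bulk samples, a change in the share of cells that express a gene and a change in RNA per cell cannot be told apart.

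Of the receptor genes, Tgfbr1 was called higher and Tgfbr2 was not called. The ratio between them, chosen after the values were seen, overlapped between the groups (exact permutation p = 0.20). With 3 libraries per group that test cannot go below 0.10, so it cannot show that the ratio stayed the same. Tgfbr1 (ENSMUSG00000007613, chromosome 4, 47353222 to 47414931, plus strand), the gene of the type I receptor kinase, was at 26.7, 25.8 and 27.4 TPM in ME and at 40.9, 36.9 and 38.3 TPM in L28BME. The groups did not overlap, and the gap between them was wider than the spread within either. The means were 26.6 ± 0.762 and 38.7 ± 2.04 TPM, with a log2 fold change of 0.52 (SE 0.055, 95% interval 0.39 to 0.66, limma adjusted p = 0.00296). Of the tested genes, 95.2% had a lower log2 fold change.

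Tgfbr2 (ENSMUSG00000032440, chromosome 9, 116084293 to 116175360, minus strand), the gene of the type II receptor that binds the ligand, was at 15.6, 12.1 and 11.3 TPM in ME and at 10.2, 15.3 and 11.7 TPM in L28BME. ME replicate 1 and L28BME replicate 2 were the highest, and the groups overlapped. Its log2 fold change was -0.07 (SE 0.18, limma adjusted p = 0.841), and the 95% interval of -0.49 to 0.36 covers changes of either sign. Without ME replicate 1 or L28BME replicate 1 the sign turned, to 0.062 and 0.052.

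Tgfbr1 carried a match to the let-7 seed near the start of its 3′ untranslated region (UTR), and so did Skil near the end of its own. The let-7 family is shown because its maturation is what LIN28B blocks. The RefSeq entries for GRCm38.p6 that were kept by name, as let-7 with a letter or miR-98, had 9 names on 11 loci with the same seed. Entries named otherwise were not counted. The seed, bases 2 to 8, is in capitals here for let-7a (chr13:48538239-48538260, minus strand), let-7g (chr9:106178846-106178867, plus strand) and miR-98 (chrX:151913229-151913250, plus strand).
let-7a: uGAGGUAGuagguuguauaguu
let-7g: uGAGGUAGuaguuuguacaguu
miR-98: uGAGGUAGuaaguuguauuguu
The reverse complement of that seed, in DNA letters, is CTACCTC, and CTACCTCA adds the A opposite the first base of the microRNA. Sites are given 5′ to 3′ on the transcript, from GENCODE M21 for GRCm38, with the matched letters in capitals (Tgfbr1, chr4:47410843-47410849, plus strand, and Skil, chr3:31122352-31122358, plus strand).
Tgfbr1: ggaggctggttgttCTACCTCA
Skil: cacaaaactgtcctCTACCTCA
The Tgfbr1 match began at base 66 of a 3′ UTR of 4154 bases, and the Skil match at base 3739 of 3964.

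Smad2 held a 7-base match without the A in a 3′ UTR of 6233 bases. The longest annotated 3′ UTRs of Thbs1 (2104 bases), Smad3 (3495 bases), Tgfbr2 (6085 bases), Ski, Smad4, Smad7 and Tgfb1 did not hold these 7 letters. That says nothing about other kinds of site, which were not searched. Among the 10866 tested protein-coding genes with an annotated 3′ UTR, 10.6% held the 7-base match and 3.69% the 8-base match. Among genes with a 3′ UTR within 25% of the length of that of Tgfbr1, 22.6% held the 7-base and 8.02% the 8-base match. For Skil these shares were 21.1% and 7.26%, and for Smad2 32.9% and 13.1%. A match is a description of the sequence, not a shown site, and let-7 itself was not measured in these libraries.

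As background for Tgfbr1, 17.9% of the 1147 genes with the 7-base match were called higher, and 19.95% of the 401 with the 8-base match. Of the 9719 genes without a match, 8.61% were called higher. The median log2 fold change was 0.07 with the 7-base match, 0.11 with the 8-base match and 0.0030 without a match. Genes with the 7-base match had longer 3′ UTRs (median 2327 bases, against 1040 without), and the part of length in this difference was not tested. Among the 3 of the 10 genes with a match, Tgfbr1 was called higher, while Skil and Smad2 were not called.

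**Figure D2:**
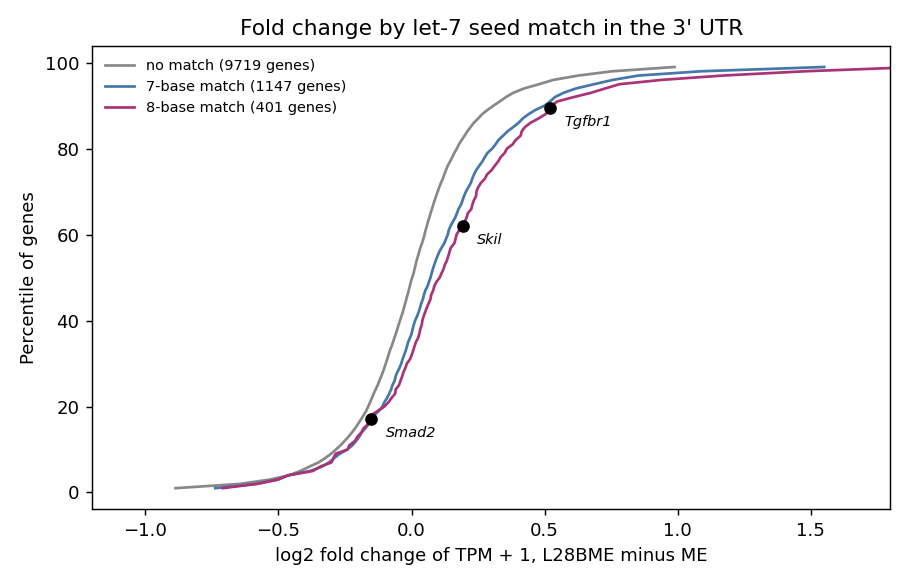
Cumulative percentile of genes (vertical axis) against log2 fold change of TPM + 1, L28BME minus ME (horizontal axis), for tested protein-coding genes without a let-7 seed match in the 3′ UTR (9719), with the 7-base match (1147) and with the 8-base match (401, a subset of the former). Black points place Tgfbr1 (0.52) and Skil (0.19) on the 8-base curve and Smad2 (-0.15) on the 7-base curve; over most of their range the curves with a match lie to the right of the curve without one.

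Among the SMAD genes, Smad3 alone was called, and that call was lost in 5 of the 6 fits without 1 library. Smad3 (ENSMUSG00000032402, chromosome 9, 63646767 to 63757994, minus strand), which encodes a receptor-activated SMAD that binds DNA, was at 24.0, 23.1 and 23.0 TPM in ME and at 26.6, 28.5 and 28.4 TPM in L28BME. All L28BME values lay above all ME values. The means were 23.4 ± 0.543 and 27.8 ± 1.04 TPM, with a log2 fold change of 0.24 (SE 0.051, 95% interval 0.12 to 0.37, limma adjusted p = 0.0285). The call was lost at adjusted p = 0.0611, 0.0904 and 0.0885 without ME replicate 1, 2 or 3 and at 0.0859 and 0.0872 without L28BME replicate 2 or 3. It stayed at adjusted p = 0.0471 without L28BME replicate 1. The log2 fold change lay between 0.225 and 0.272 in these 6 fits.

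Smad2 (ENSMUSG00000024563, chromosome 18, 76241580 to 76310963, plus strand), the other receptor-activated SMAD of this branch, was at 25.2, 29.0 and 33.2 TPM in ME and at 35.6, 22.05 and 22.2 TPM in L28BME. L28BME replicate 1 was the highest of the 6 libraries and the other L28BME libraries were the lowest, so the groups overlapped. Its log2 fold change was -0.15 (SE 0.20, 95% interval -0.65 to 0.35, limma adjusted p = 0.671). Without L28BME replicate 1 the log2 fold change was -0.37 and still not called (adjusted p = 0.135).

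Smad4 (ENSMUSG00000024515, chromosome 18, 73639009 to 73703780, minus strand), the SMAD shared by the TGF-beta and BMP branches, was at 34.7, 32.3 and 38.2 TPM in ME and at 39.2, 38.4 and 32.0 TPM in L28BME. These values overlapped (log2 fold change 0.06, SE 0.099, 95% interval -0.18 to 0.30, limma adjusted p = 0.747). Smad7 (ENSMUSG00000025880, chromosome 18, 75367529 to 75395935, plus strand), the inhibitory SMAD and itself a textbook target of TGF-beta signalling, was at 7.04, 6.92 and 6.70 TPM in ME and at 6.95, 7.31 and 7.60 TPM in L28BME. It overlapped between groups (log2 fold change 0.07, SE 0.071, 95% interval -0.10 to 0.24, limma adjusted p = 0.560). Both intervals leave out changes as large as that of Tgfbr1.

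The corepressor genes Ski and Skil separated in opposite directions, and neither was called. Ski (ENSMUSG00000029050, chromosome 4, 155154075 to 155222592, minus strand) was at 14.8, 14.9 and 14.5 TPM in ME and at 13.4, 13.9 and 13.7 TPM in L28BME. All L28BME values lay below all ME values, with a log2 fold change of -0.10 (SE 0.053, 95% interval -0.23 to 0.03, limma adjusted p = 0.260). Skil (ENSMUSG00000027660, chromosome 3, 31095058 to 31122577, plus strand) was at 5.21, 5.01 and 5.36 TPM in ME and at 5.73, 6.25 and 6.25 TPM in L28BME. All L28BME values lay above all ME values, with a log2 fold change of 0.19 (SE 0.077, 95% interval 0.0045 to 0.38, unadjusted p = 0.0461, limma adjusted p = 0.160).

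**Figure D3:**
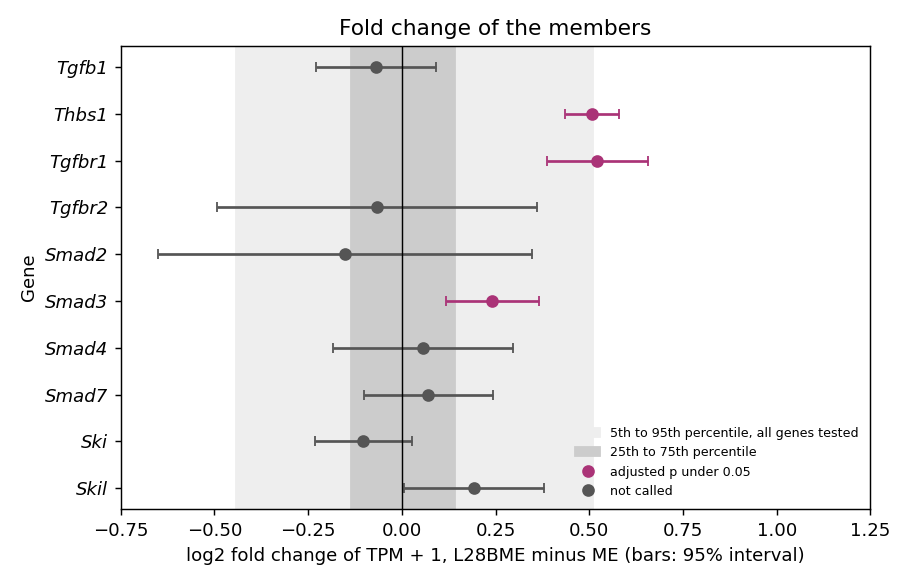
log2 fold change of TPM + 1, L28BME minus ME, with its 95% interval for each of the 10 genes (purple, adjusted p under 0.05; grey, not called), over bands from the 25th to the 75th and from the 5th to the 95th percentile of all tested genes. Thbs1 (0.51) and Tgfbr1 (0.52) lie at the upper edge of the wider band, at 0.51, and the intervals of Tgfbr2 and Smad2 are the widest.

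Ratios within a library, which do not depend on how libraries are scaled, were computed for 3 pairs chosen after the values were seen. The ratio of Skil to Ski was 0.352, 0.335 and 0.369 in ME and 0.427, 0.449 and 0.456 in L28BME, with no overlap. The exact permutation test (two-sided) gave p = 0.10, the smallest it allows with 3 libraries per group, and 0.30 after adjustment over the 3 ratios. The ratio of Tgfbr1 to Tgfbr2 was 1.72, 2.14 and 2.43 in ME and 3.998, 2.41 and 3.29 in L28BME, with overlap (exact permutation p = 0.20, adjusted 0.30). The ratio of Smad3 to Smad2 was 0.951, 0.799 and 0.694 in ME and 0.747, 1.29 and 1.28 in L28BME, also with overlap (exact permutation p = 0.30, adjusted 0.30). None of the ratios could reach 0.05 in this design.

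Other genes of the pathway were read from 9 lists that, without the 10 genes, held 97 genes, of which 72 were tested. Of these, 9 were called higher and 3 lower, and their median log2 fold change was 0.04. The shares called among all tested genes were 8.28% higher and 6.6% lower, as given above. At an unadjusted p under 0.05, 16 of the 72 were higher and 9 lower, and the counts at that threshold for single lists stand beside the same 16% and 13.7% of all tested genes. The thrombospondin receptors and binding partners, of which 10 were tested, gave 5 of the 9 higher calls and 1 of the 3 lower calls. The other calls were Eng among receptors, E2f5 among SMAD partners, Strap and Wwp1 among turnover genes, and Klf10 and Bhlhe40 among target genes.

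No other ligand or latency gene was called. Of 6 tested, 0 were called by limma, and at an unadjusted p under 0.05 there were 2 higher and 1 lower. Nrros, which encodes a protein that tethers latent TGF-beta to myeloid cells, was abundant, at 188, 202 and 116 TPM in ME and 197, 208 and 222 TPM in L28BME. ME replicate 3 stood below the rest (limma adjusted p = 0.324). Furin, the protease that cleaves the TGF-beta precursor, was at 43.1 ± 0.318 TPM in ME against 36.7 ± 2.88 TPM in L28BME (limma adjusted p = 0.0639). Tgfb3, another ligand, was at 2.66 TPM in both groups, and Tgfb2 did not exceed 0.0826 TPM in any library.

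Eng was the called gene among the other receptors. It encodes endoglin, a co-receptor for TGF-beta family ligands, and was at 16.9, 19.1 and 17.9 TPM in ME and at 34.2, 34.3 and 35.7 TPM in L28BME. The groups were far apart (fold 1.93, log2 fold change 0.91, SE 0.060, limma adjusted p = 6.79e-04). Eng shares 61 exonic bases with Fpgs on the opposite strand, and no source used here states if reads were counted by strand. With Fpgs, at 41.5 to 47.9 TPM, added to it, Eng had a log2 fold change of 0.28 and was still called (limma adjusted p = 0.0107). The sum takes in all of Fpgs, so it cannot show how reads on the shared bases were assigned. Of 8 other receptor genes tested, 1 was called higher and 0 lower, and at an unadjusted p under 0.05 there were 3 higher and 1 lower. Acvr1b, an activin type I receptor, was at 13.2 ± 0.464 and 15.2 ± 1.18 TPM (adjusted p = 0.160), and the BMP-branch SMAD genes Smad1 and Smad5 were at 10.002 and 37.004 TPM in ME and at 7.12 and 30.1 TPM in L28BME (adjusted p = 0.0980 and 0.0932).

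Among 17 other SMAD partners and corepressors tested, E2f5 was called higher and none lower, with 2 higher and 1 lower at an unadjusted p under 0.05. E2f5 encodes an E2F factor known to work with SMAD3 and p107 in repression. It was at 8.17, 7.01 and 8.31 TPM in ME and at 17.2, 17.5 and 16.996 TPM in L28BME (fold 2.20, log2 fold change 1.05, limma adjusted p = 9.86e-04). Its 3′ UTR of 592 bases held the 7-base let-7 match at base 27, which 4.27% of genes with 3′ UTRs of similar length held (chr3:14605744-14605750, plus strand).
E2f5: cttgggactattatCTACCTCt
E2f5 shares 26 exonic bases with Rbis on the opposite strand. With Rbis, at 134 to 199.6 TPM, added to it, E2f5 was not called (log2 fold change 0.16, limma adjusted p = 0.495). That sum takes in all of the far more abundant Rbis, so it mostly follows Rbis. It cannot show how reads on the shared bases were assigned. Of the 72 other pathway genes, 7 held the 7-base match (9.72%, against 10.6% of all tested protein-coding genes with a 3′ UTR). Of these 7, E2f5, Itgb3 and Itga4 were called higher, and Tgfbr3, which also held the 8-base match, Acvr1b, Usp15 and Nedd4l were not called. The nuclear corepressor genes Ncor1 and Hdac1 were at 199 and 235 TPM in ME and 218.5 and 257 TPM in L28BME, and neither was called.

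Of 15 tested adaptor and turnover genes, 1 was called higher and 1 lower. Strap, which encodes a receptor-associated inhibitor of TGF-beta signalling, rose 1.10-fold from 221 ± 3.68 to 244 ± 2.89 TPM (limma adjusted p = 0.0230). Wwp1, a ubiquitin ligase gene, fell from 16.8 ± 0.478 to 14.2 ± 0.308 TPM (limma adjusted p = 0.0402). Strap lost its call without any 1 library other than L28BME replicate 3 (limma adjusted p = 0.0507 to 0.0784), and Wwp1 without any 1 of the 6 libraries (0.0793 to 0.121). None of the 4 tested genes of the TAK1 kinase arm was called by limma, also at an unadjusted p under 0.05. Tab2 and Map3k7, which encode a TAK1-binding protein and TAK1 itself, were its most abundant genes, at 118 ± 7.35 and 37.9 ± 14.4 TPM in ME and 120.2 ± 25.9 and 39.3 ± 14.1 TPM in L28BME.

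Of 13 tested textbook target genes of TGF-beta other than Thbs1, Smad7 and Skil, 1 was called higher and 1 lower. Klf10, also known as TGF-beta inducible early gene, rose from 20.3 ± 0.796 to 25.6 ± 0.703 TPM (limma adjusted p = 0.0136), but was not called without L28BME replicate 1 (adjusted p = 0.0522). Bhlhe40, a transcriptional repressor gene, fell from 45.7 ± 0.768 to 38.01 ± 1.19 TPM (limma adjusted p = 0.0131), but was not called without ME replicate 3 (adjusted p = 0.0514). Cdkn1a, the gene of the cell cycle inhibitor p21, was at 109 ± 2.02 and 119 ± 4.45 TPM (adjusted p = 0.0763).

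The other thrombospondin genes, Thbs2, Thbs3, Thbs4 and Comp, summed to between 0.666 and 1.79 TPM per library, so nearly all thrombospondin RNA came from Thbs1. Of 10 tested genes of thrombospondin receptors and binding partners, 5 were called higher and 1 lower. Of all tested genes, 8.28% were called higher and 6.6% lower. Like the others, this list was chosen with earlier results of these data known. The median log2 fold change of this list was 0.26, against 0.0033 for all tested genes.

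Lrp1, the endocytic receptor that clears thrombospondin-1, was at 8.15, 5.67 and 6.38 TPM in ME and at 13.3, 14.6 and 13.5 TPM in L28BME (log2 fold change 0.95, SE 0.13, limma adjusted p = 0.00636). Itgb3, the integrin beta3 gene of platelets, rose from 36.4 ± 1.23 to 50.6 ± 1.46 TPM, and Sdc1, which encodes syndecan-1, from 17.04 ± 0.859 to 23.3 ± 0.538 TPM. The integrin alpha chain gene Itga4 rose from 61.3 to 76.9 TPM, and Itga6 from 46.2 to 52.99 TPM. The call of Itga6 was lost without any 1 of the 6 libraries (limma adjusted p = 0.0547 to 0.0859). The groups of Lrp1, Itgb3, Sdc1, Itga4 and Itga6 did not overlap.

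Calr, the gene of calreticulin, a chaperone that also serves as a cell-surface partner of thrombospondin-1, fell from 2497 ± 20.7 to 1974 ± 35.1 TPM (log2 fold change -0.34, limma adjusted p = 7.71e-04). Cd47, the gene of a widespread thrombospondin receptor, was at 368 ± 2.01 and 365 ± 10.6 TPM (adjusted p = 0.803). Cd36, the gene of another receptor, was listed at 0 in every library.

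**Figure D4:**
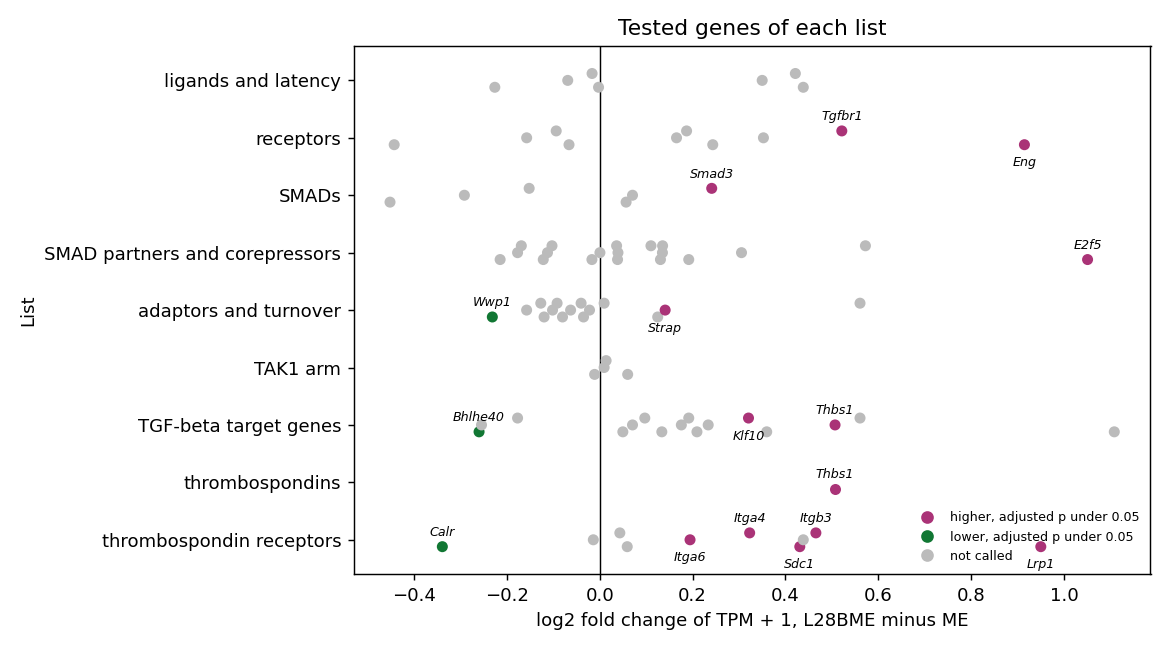
log2 fold change of TPM + 1, L28BME minus ME, of every tested gene in the 9 lists (1 point per gene; some genes are on 2 lists); purple, called higher; green, called lower; grey, not called. Calls are most numerous among thrombospondin receptors, where 5 genes are purple and Calr is green. The points of the TAK1 arm lie close to 0, and intervals are not drawn.

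Markers of other cell types and of progenitors also differed between the groups, in both directions, and their part in the results was not tested. The counts for each marker list stand beside 8.28% of all tested genes called higher and 6.6% called lower. Of 10 tested megakaryocyte markers out of 13 listed, 5 were called higher and 0 lower. The summed level of this list was 87.2 to 90.6 TPM in ME libraries and 145 to 162 TPM in L28BME libraries. Itga2b and Pf4, the most abundant, were at 57.6 and 19.3 TPM in ME and 66.1 and 52.4 TPM in L28BME, and Treml1 was listed at 0 in every library. Of 8 tested monocyte and macrophage markers out of 10, 1 was called higher and 4 lower, with a summed level of 308 to 316 TPM in ME and 253 to 260 TPM in L28BME. Lyz2 and Cd68 led this list at 171 and 69.8 TPM in ME, and Marco was listed at 0 in every library. Of 10 stromal and endothelial markers, only Pecam1 (163 and 113 TPM) and Pdgfrb (22.7 and 27.7 TPM) were tested, and Pdgfra and Cxcl12 were listed at 0 in every library. Of 6 tested progenitor markers out of 7 listed, 1 was called higher and 3 lower. Flt3 rose from 96.6 ± 3.96 to 187 ± 2.10 TPM (limma adjusted p = 1.60e-04). Ly6a, which encodes the sorted Sca1, fell from 10.6 ± 1.09 to 2.07 ± 0.970 TPM (limma adjusted p = 0.00376), Cd48 from 297 to 228 TPM and Cd34, which the labels do not name in the sort, from 506 to 440 TPM. Kit (94.1 and 79.2 TPM) and Ptprc (128 and 137 TPM) were not called, and Slamf1, the gene of CD150, was at 0.120 and 0.634 TPM and not tested.

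The calls of Thbs1 and Tgfbr1 held under each of the alternative settings that were run, including each of the 6 fits without 1 library. Adjusted p lay between 4.34e-04 and 0.0132 for Thbs1 and between 0.00265 and 0.0254 for Tgfbr1, with log2 fold changes of 0.49 to 0.52 and 0.48 to 0.55. Skil was called under none of them, with a smallest adjusted p of 0.0724 when limma was run without an intensity trend.

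**Figure D5:**
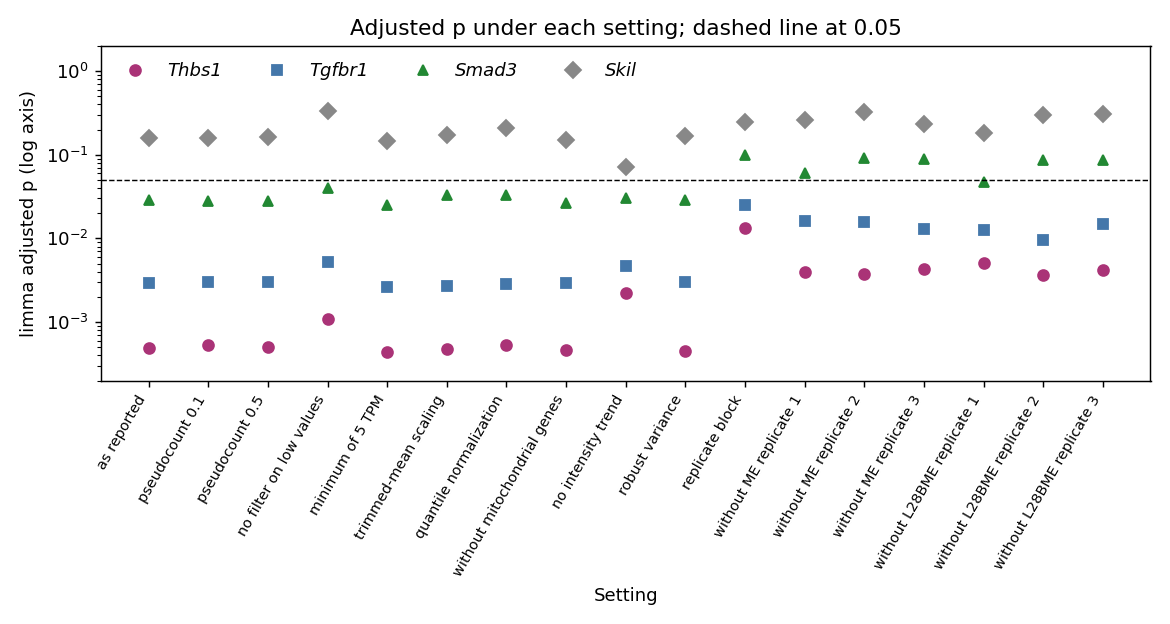
limma adjusted p (log axis) of Thbs1, Tgfbr1, Smad3 and Skil as reported and under 16 alternative settings (horizontal axis); the dashed line marks 0.05. Thbs1 and Tgfbr1 lie below the line under every setting shown, Skil above it, and Smad3 rises above it with the replicate block and without any 1 library other than L28BME replicate 1.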

How the data were processed

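RNA of 6 libraries (TruSeq Stranded mRNA, per the labels' protocols) was compared. The authors deposited TPM per gene and library. The submitters' processing notes name bcl2fastq, HISAT2, StringTie and DESeq2 with GRCm38, without versions. The deposited percent GC of each gene was not used. TPM summed to 999919 to 999996 per library, and 431 repeated IDs never had values on more than 1 entry.

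Genes were fitted on log2(TPM + 1) with limma 3.58.1 in R 4.3.3 (intensity trend, two-sided tests). The procedure was also run on data simulated with independent noise at the spread of these libraries, and no result given here rests on that run. Such data cannot test if the replicates are technical. Positions and 3′ UTRs (the longest per gene, after the stop codon) came from GENCODE M21. Members and lists were chosen with earlier results of these data known. Named were all members, each list's called genes (up to 6) or else its 2 most abundant, and of marker lists the 2 most abundant and those at 0. Other named genes, such as Furin, Acvr1b, Smad1, Ncor1, Cdkn1a, Cd47, Flt3 and Ly6a, were chosen after their values were seen. Tried as alternatives were pseudocounts, filters, scalings, limma options, a replicate block, leaving out each library and summing overlapping gene models. The ratios, and that summing for genes outside the 10, were added after seeing the data. No source says that libraries with equal numbers share an animal or day, so they were not paired. Python 3.11.15 and scipy 1.17.1 were also used.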

Additional observations from a re-analysis of the deposited data

How the results depend on the processing

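Of the 10 genes, 3 were called higher under each other pseudocount, filter, scaling and limma option, 2 with the replicate block, and 2 to 3 without 1 library; 0 were called lower throughout. With the replicate block, 548 genes were called higher and 400 lower, against 1105 and 881, and among the other pathway genes 6 and 1, against 9 and 3; Smad3 was lost (adjusted p = 0.0994). Deviations of same-numbered libraries correlated at -0.032 to -0.074, and those of differently numbered libraries at -0.006 to 0.055. Such small values cannot settle if libraries share an animal or day. No pairing was taken because no source states one. Without 1 library, 617 to 693 genes were called higher and 461 to 582 lower, and 1 to 3 other pathway genes lower (1 without ME replicate 3); fewer libraries give fewer calls by construction. The log2 fold change of Tgfbr2 ranged from -0.22 to 0.062 without 1 library and turned sign without ME replicate 1 (0.062) or L28BME replicate 1 (0.052); the cause was not tested, and it was called under no setting. The share of 3′ UTRs with a let-7 match was 3.69% with 8 bases, against 10.6%. Single-library losses of Smad3, Strap, Wwp1, Klf10, Bhlhe40 and Itga6 are given above. So is the loss of E2f5 when Rbis was added, a sum that mostly follows Rbis. Calls were also lost for Strap without an intensity trend (adjusted p = 0.0817), for Itga6 with quantile normalization (0.0522), for Wwp1 without a filter on low values (0.0629), and for Strap, Wwp1, Klf10, Bhlhe40 and Itga6 with the replicate block (0.0653 to 0.116). Depth is unknown for TPM, so small changes in genes of low abundance such as Skil and Smad7 cannot be weighed against counting error.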

Other observations

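Among the tested genes of the TGF-beta and thrombospondin lists with a mean of at least 5 TPM, 3 differed at least 2-fold between libraries of the same group. Junb, a TGF-beta target and AP-1 gene, was listed at 0 in ME replicate 1 and L28BME replicate 3 and was at 0.181 TPM in ME replicate 2, but was at 14.5, 11.6 and 13.5 TPM in ME replicate 3 and L28BME replicates 1 and 2. Map3k7, which encodes the kinase TAK1, was at 21.3 TPM in ME replicate 2 and 23.0 TPM in L28BME replicate 1 and at 45.8 to 48.1 TPM in the other libraries. Tgif2, a SMAD corepressor gene, was at 20.6 TPM in ME replicate 1 and 23.2 TPM in L28BME replicate 2, and at 5.90 to 10.9 TPM in the others. These splits did not follow the groups, and none of the 3 genes was called.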
